A study of Mus musculus with 2 samples.

Results

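Interferon-stimulated antiviral effectors and sensors are described here as 40 genes, taken by name and matched through their Entrez gene identifiers to 40 of the 17216 genes listed for either library. RNA was sequenced on a BGISEQ-500 instrument from mouse cells sorted as LT-HSCs, the long-term stem cells from which all blood lineages are renewed. There was 1 library from CCP3 KO (Ccp3-/-) mice and 1 library from wild type (WT) littermates, both on the C57BL/6 strain, with no treatment named in the labels. CCP3 is a cytosolic carboxypeptidase, encoded by Agbl3, that removes glutamate residues from proteins, and the study looked for genes whose RNA differs in cells without it. The sort took cells that lacked lineage markers and CD48 and carried Sca-1, c-Kit and CD150. The labels do not give the age, the sex, the number of pooled animals or the deleted part of the gene.

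Interferons bind receptors that signal through the kinases JAK1 and TYK2 to a transcription factor complex that holds STAT2 and IRF9, enters the nucleus and binds interferon-stimulated response elements in the promoters of its target genes. The proteins made from those genes sense viral RNA, stop translation, degrade RNA, alter nucleotides or block the entry and release of viruses, and some of them dampen the signal in turn. Stem cells are known to keep part of this programme on without infection, and type I interferon is known to drive dormant haematopoietic stem cells into division.

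The levels are FPKM values, in which fragments are scaled for transcript length and library depth, so that genes can be compared per length within a library. The KO-labelled library listed 16318 genes and the WT library 16532, from about 14.3 and 15.3 M reads as estimated from the spacing of low FPKM values. Agbl3 was listed at 0.66 FPKM in the library labelled CCP3 KO and 1.11 FPKM in the WT library, from about 15 and 23 reads, with a KO to WT ratio of 0.595 (95% counting interval 0.287 to 1.18). The counted transcript was therefore still present and did not check the genotype label, so each direction below rests on that label. Cd48, whose protein the sort excluded, was listed at 114 FPKM in the KO-labelled and 136 FPKM in the WT library, while Slamf1, which encodes CD150, was listed at 3.40 and 2.14 FPKM and Kit at 56.5 and 59.7 FPKM. Cd48 RNA was thus abundant for a gate that excludes its protein. Ly6a, which encodes Sca-1, was at least 1.5-fold lower in the KO-labelled library, at 28.4 and 49.1 FPKM with a ratio of 0.578 (0.508 to 0.656). Xist was listed at 44.2 FPKM in the KO-labelled and 5.38 FPKM in the WT library, and 4 Y-linked genes were lower in the KO-labelled library, with Eif2s3y at 11.5 and 44.6 FPKM. The part of these differences in the values below was not tested.

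With 1 library per genotype there is no replicate and no test, and every value compares these 2 libraries and not the genotypes. Each ratio of KO to WT FPKM is given with an approximate 95% interval from estimated reads, and those intervals cover counting error alone. A gene's difference is its log2(FPKM + 1) in the KO-labelled library minus that in the WT library, a scale that understates the change of low genes, and a gene is counted as lower or higher where this difference reaches 1.5-fold, which is 0.58 on the log2 scale. In bulk RNA, fewer cells of a type and less RNA per cell cannot be told apart.

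Most of the antiviral genes had lower RNA levels in the KO-labelled library. Of the 40 genes, 16 were at least 1.5-fold lower, beside 6.13% of the 11985 genes whose mean was 1 FPKM or more, and 0 were at least 1.5-fold higher, beside 6.11% of all such genes. The difference was below 0 in 36 of the 40 genes, beside 49.0% of all genes, and 7 were at least 2-fold lower, beside 1.55% of all genes. The counting interval of the ratio lay wholly below 1 in 33 genes, beside 27.1% of all genes. It lay wholly above 1 in 3 genes, beside 3734 of the 11985 genes, and around 1 in 4, beside 5003 of them. The median difference was -0.47 over the 40 genes and 0.01 over all genes. All 40 genes were listed in both libraries and averaged 1 FPKM or more, and 34 averaged 5 FPKM or more.

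**Figure D1:**
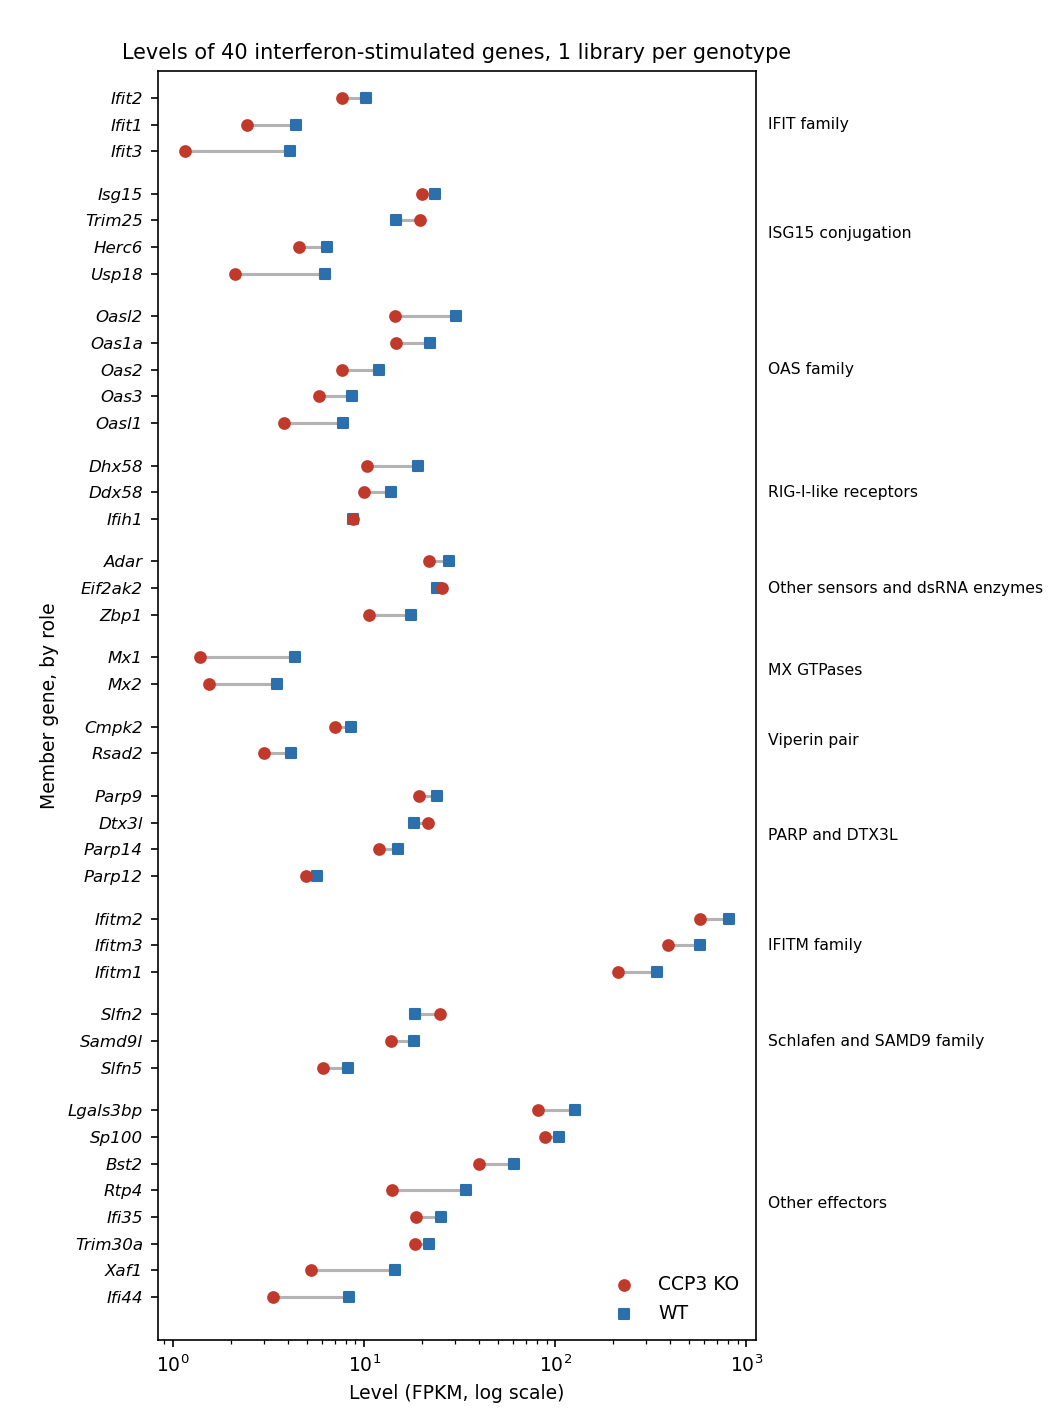
Level of each of the 40 genes in FPKM on a log axis, grouped by role, with the CCP3 KO library as red circles and the WT library as blue squares joined by a grey line (1 library per genotype, no error bars). The red circle lies left of the blue square for 36 genes and right of it for Trim25, Eif2ak2, Dtx3l and Slfn2, and the lowest and highest genes are Ifit3 at 1.15 FPKM and Ifitm2 at 572 FPKM in the CCP3 KO library.

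Summed over the 40 genes, the level was 1750 FPKM in the KO-labelled library and 2506 FPKM in the WT library, a ratio of 0.699. Ifitm1, Ifitm2 and Ifitm3 made up 67.1% of that sum in the KO-labelled library and 68.7% in the WT library, and without them the sums were 576 and 785 FPKM, a ratio of 0.733. The median level of the 40 genes was 11.3 FPKM in the KO-labelled library and 16.3 FPKM in the WT library, while the median over all genes at a mean of 1 FPKM or more was 11.9 and 11.6 FPKM. The order of the levels was much alike in the libraries (Spearman's rho 0.94 across the 40 genes, which share both libraries and so are not independent). Rtp4 was the 18th highest of the 40 in the KO-labelled library and the 7th in the WT library, and Oasl2 the 17th and the 8th. Slfn2 ranked higher in the KO-labelled library, at 8th and 17th, as did Trim25 at 12th and 22nd and Dtx3l at 10th and 18th.

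The promoters of several of these genes hold the letters of an interferon-stimulated response element, and the promoters shown are those of the 4 genes with the largest differences among members that hold these letters at a mean of 5 FPKM or more. The letters searched were GAAANNGAAA, or TTTCNNTTTC on the other strand, in the window from 250 bases before to 50 bases after the start of each gene in RefSeq (build GRCm38.p6). Each sequence is written 5′ to 3′ along its gene, which lies on the minus strand in all 4 cases, and capitals mark the matches. The Bst2 window is chr8:71537423-71537722, the Oas1a window chr5:120907476-120907775, the Ifitm3 window chr7:141010695-141010994 and the Oas3 window chr5:120777610-120777909.
Bst2: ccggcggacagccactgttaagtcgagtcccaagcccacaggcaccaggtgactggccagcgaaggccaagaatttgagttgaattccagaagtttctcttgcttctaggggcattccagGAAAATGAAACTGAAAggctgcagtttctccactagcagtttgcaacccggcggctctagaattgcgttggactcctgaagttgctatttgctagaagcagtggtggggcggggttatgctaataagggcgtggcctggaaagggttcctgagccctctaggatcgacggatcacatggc
Oas1a: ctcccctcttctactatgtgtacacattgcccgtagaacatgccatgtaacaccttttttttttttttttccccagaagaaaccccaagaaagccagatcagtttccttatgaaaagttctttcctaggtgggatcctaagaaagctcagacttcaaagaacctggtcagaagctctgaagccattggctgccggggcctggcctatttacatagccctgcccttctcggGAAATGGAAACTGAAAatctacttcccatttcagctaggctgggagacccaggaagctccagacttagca
Ifitm3: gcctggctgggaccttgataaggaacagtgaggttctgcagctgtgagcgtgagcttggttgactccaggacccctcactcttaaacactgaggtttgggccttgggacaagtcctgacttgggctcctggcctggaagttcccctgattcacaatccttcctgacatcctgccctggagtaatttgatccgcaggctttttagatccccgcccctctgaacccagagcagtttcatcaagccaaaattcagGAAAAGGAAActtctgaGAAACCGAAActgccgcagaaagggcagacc
Oas3: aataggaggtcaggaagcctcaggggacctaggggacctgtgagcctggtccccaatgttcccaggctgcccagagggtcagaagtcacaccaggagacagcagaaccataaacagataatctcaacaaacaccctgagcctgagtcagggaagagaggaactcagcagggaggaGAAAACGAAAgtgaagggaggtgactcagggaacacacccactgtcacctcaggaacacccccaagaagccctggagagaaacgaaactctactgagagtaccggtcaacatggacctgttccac
Bst2 held 2 overlapping matches, the first of them beginning at position -130 from the gene's start, and Oas1a held 2 overlapping matches that begin at -20 and -14. Both matches of Ifitm3 lie just after the start, and the match of Oas3 begins at -75. A match describes letters and does not show that a factor binds there.

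The windows listed below were chosen after their values were seen, to set the members with a match and the largest and smallest differences side by side, and each is written on the strand that reads GAAA, with the match in capitals and 5 bases on either side. Ifit3, Ifit1 and Isg15 had more than 1 match, and 1 is shown for each.
Ifit3: aagagGAAAGTGAAActtac
Ifit1: gactgGAAAGTGAAActgaa
Isg15: aaaagGAAACCGAAAcagaa
Ifih1: gaatcGAAACAGAAAccgat
Eif2ak2: gccggGAAAACGAAAcagaa
The difference of these genes was -1.25 for Ifit3, -0.65 for Ifit1, -0.22 for Isg15, -0.00 for Ifih1 and 0.08 for Eif2ak2. All 5 hold the same spaced letters. In the windows shown for Ifit3 and Ifit1 the letters CT follow the match, and in those of Isg15, Ifih1 and Eif2ak2 they do not. The other match of Ifit3 is not followed by CT. Because the 5 windows were picked by their differences, this contrast is no test of a relation between CT and the difference. Among the members not picked, Oas3 and Ifitm2 lacked CT at -0.50, and Trim30a held it at -0.24.

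RefSeq promoters were at hand for 31 of the 40 genes, and 14 of these 31 genes (45.2%) held the element, against 3.99% of the 27025 genes in the table and 3.96% of the 9512 of them at a mean of 1 FPKM or more. The longer form GAAANNGAAACT, or AGTTTCNNTTTC on the other strand, was held by 7 of the 31 genes (22.6%), against 0.303% of all genes in the table and 0.463% of those at a mean of 1 FPKM or more. The 14 genes with the element had a median difference of -0.47, with 3 at least 1.5-fold lower, and the 17 without it a median of -0.38, with 6 at least 1.5-fold lower. Of the 14, the 7 with the longer form had a median of -0.57, with 3 at least 1.5-fold lower. Among the genes without a match in this window were Xaf1, Ifi44, Oasl1 and Oasl2. The 9 genes with no promoter entry, Dhx58, Mx1, Mx2, Oas2, Parp14, Parp9, Rtp4, Usp18 and Zbp1, had a median of -0.81, with 7 at least 1.5-fold lower. Of the other genes that hold the element at a mean of 1 FPKM or more, 363 in number, the median difference was -0.02 and 11.6% were at least 1.5-fold lower, while for the 37 others with the longer form these values were -0.13 and 18.9%.

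**Figure D2:**
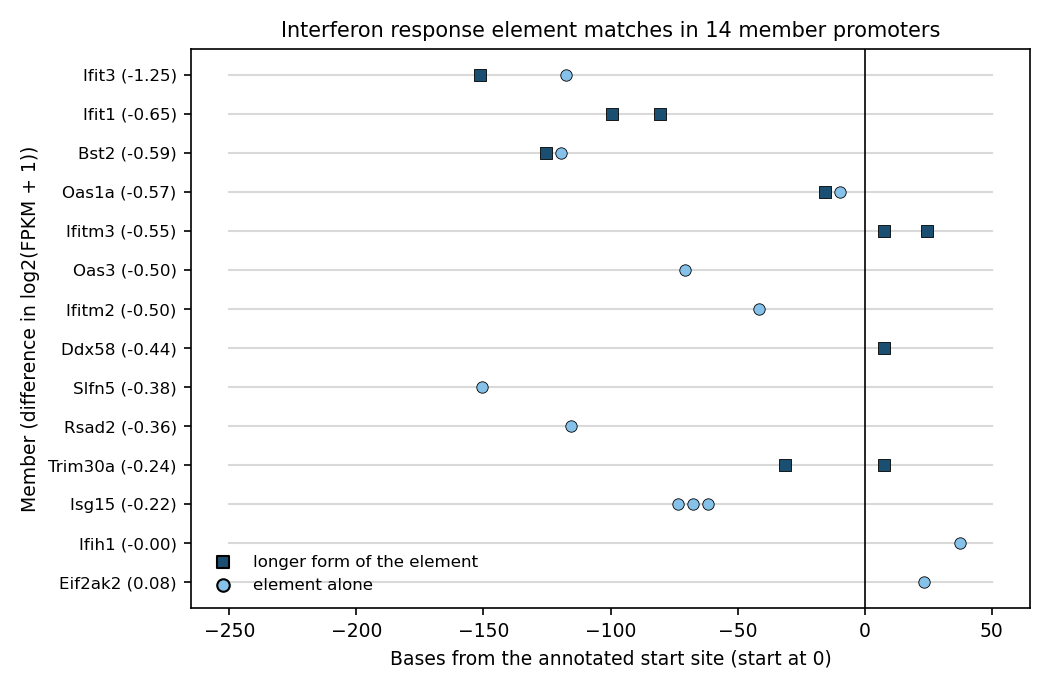
Position of each match of the response element (middle of the match, in bases from the annotated start at 0) in the promoters of the 14 genes that hold it, ordered by their difference in log2(FPKM + 1), CCP3 KO minus WT, given in brackets. Squares are the longer form and circles the element alone, the 2 promoter entries of Trim30a share a line, and both kinds of match occur from Ifit3 at -1.25 down to Trim30a at -0.24, below which only circles remain for Isg15, Ifih1 and Eif2ak2.

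The IFIT proteins bind viral RNA and keep it from being translated, and all 3 genes measured had lower levels in the KO-labelled library, with a median difference of -0.65 and 2 of them past the 1.5-fold limit. Ifit3, the partner that stabilises the complex of these proteins, was listed at 1.15 FPKM in the KO-labelled library and 4.10 FPKM in the WT library, from about 32 and 123 reads. Its ratio of 0.280 (0.182 to 0.413) was the lowest of the 40 genes. Ifit1, which recognises the cap of foreign RNA, stood at 2.44 FPKM in the KO-labelled and 4.39 FPKM in the WT library, a ratio of 0.556 (0.427 to 0.72). Ifit2 was closer, at 7.66 and 10.2 FPKM with a ratio of 0.748 (0.659 to 0.847). The 3 genes neighbour each other on chromosome 19, and their differences spanned from -1.25 to -0.38. Of the words of 50 bases in the Ifit3 transcript, 51.2% also occur in Ifit3b, so reads of this pair could be split between them and the value of Ifit3 alone is uncertain. Ifit3 and Ifit3b together gave 1.53 FPKM in the KO-labelled library and 4.98 FPKM in the WT library, a ratio of 0.307, and Ifit1 with its 2 close relatives gave 3.93 and 6.46 FPKM, a ratio of 0.608.

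ISG15 is a ubiquitin-like protein that is joined to other proteins and taken off again, and the genes of this cycle differed unequally. Usp18, the protease that removes ISG15 and also dampens signalling at the interferon receptor, was listed at 2.10 FPKM in the KO-labelled library and 6.27 FPKM in the WT library, a ratio of 0.335 (0.239 to 0.457). Isg15 itself stood at 19.96 FPKM in the KO-labelled and 23.5 FPKM in the WT library, and the interval of its ratio of 0.85 (0.706 to 1.03) held 1. Herc6, the main ISG15 ligase of the mouse, was listed at 4.54 and 6.41 FPKM, a difference of -0.42. Trim25, a ligase for ubiquitin and ISG15 that acts on RIG-I, was higher in the KO-labelled library, at 19.5 FPKM against 14.7 FPKM in the WT library, a ratio of 1.33 (1.23 to 1.43). The 2 enzymes upstream of the ligases, which are not among the 40 genes, were both at least 1.5-fold lower. The activating enzyme gene Uba7 was listed at 22.6 FPKM in the KO-labelled library and 36.9 FPKM in the WT library, and the conjugating enzyme gene Ube2l6 at 16.8 and 29.3 FPKM. With the difference centred on genes of like transcript length, Isg15 came to 0.06, on the other side of 0.

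The OAS enzymes make short adenylate chains in response to double-stranded RNA, and all 5 OAS and OAS-like genes were lower in the KO-labelled library, with a median difference of -0.59 and 3 of them past the 1.5-fold limit. Oasl2, an OAS-like gene whose mouse protein is enzymatically active, was listed at 14.4 FPKM in the KO-labelled library and 30.3 FPKM in the WT library, a ratio of 0.475 (0.433 to 0.522). Oasl1, whose mouse protein lacks that activity and restrains translation of Irf7, stood at 3.81 and 7.76 FPKM, a ratio of 0.491 (0.390 to 0.616). Oas2 had 7.61 FPKM in the KO-labelled library and 11.9 FPKM in the WT library. Oas1a, at 14.6 and 22.2 FPKM with a difference of -0.57, and Oas3, at 5.82 and 8.64 FPKM with -0.50, lay just under the 1.5-fold limit. Oas2 at -0.59 lay just past it. Oas1a shares 57.6% of its 50-base words with Oas1g, and the 5 listed Oas1 genes summed to 24.3 FPKM in the KO-labelled library and 37.1 FPKM in the WT library, a ratio of 0.656. Outside the 40 genes, Abce1, which acts in ribosome recycling, was at least 1.5-fold higher, at 72.7 FPKM in the KO-labelled library and 46.3 FPKM in the WT library. Pde12, which degrades the adenylate chains, stood at 8.99 and 8.24 FPKM.

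The RIG-I-like receptors sense viral RNA in the cytosol, and their 3 genes did not share a size of difference. Dhx58, which encodes LGP2, a helicase that tunes the other receptors and lacks their signalling domains, was listed at 10.3 FPKM in the KO-labelled library and 19.2 FPKM in the WT library, a ratio of 0.539 (0.474 to 0.614). Ddx58, which encodes RIG-I, the sensor of RNA ends, stood at 9.92 and 13.8 FPKM, a ratio of 0.718 (0.652 to 0.791). Ifih1, which encodes MDA5, the sensor of long double-stranded RNA, was close to equal, at 8.74 FPKM in the KO-labelled library and 8.77 FPKM in the WT library, with a ratio of 0.997 (0.897 to 1.11). With both libraries scaled to equal sums its difference was 0.17.

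Of the other sensors and enzymes of double-stranded RNA, Zbp1 alone was at least 1.5-fold lower. Zbp1, a sensor of Z-form nucleic acid that can trigger necroptosis, was listed at 10.6 FPKM in the KO-labelled library and 17.6 FPKM in the WT library, a ratio of 0.6 (0.496 to 0.724). Its difference of -0.69 became -0.48 when centred on transcript length. Adar, which edits adenosine in double-stranded RNA and so keeps a cell's own RNA from being sensed, stood at 21.7 and 27.9 FPKM, a difference of -0.35. Eif2ak2, which encodes the kinase PKR that halts translation, stood at 25.5 FPKM in the KO-labelled library and 24.1 FPKM in the WT library, and the interval of its ratio of 1.06 (0.988 to 1.14) held 1. Its difference of 0.08 became -0.02 when centred on transcript length.

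The MX proteins are GTPases that trap viral nucleocapsids, and C57BL/6 mice are known to carry a defective Mx1 allele. Both genes were at least 1.5-fold lower, from low levels. Mx1 was listed at 1.38 FPKM in the KO-labelled library and 4.34 FPKM in the WT library, from about 54 and 181 reads, with a ratio of 0.318 (0.231 to 0.434). Mx2 was listed at 1.55 and 3.48 FPKM, with a ratio of 0.445 (0.318 to 0.619).

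Viperin, encoded by Rsad2, turns CTP into a chain terminator of viral RNA synthesis, and the nucleotide kinase encoded by its neighbour Cmpk2 supplies the substrate. Neither reached 1.5-fold. Rsad2 stood at 3.0 FPKM in the KO-labelled library and 4.13 FPKM in the WT library, a ratio of 0.726 (0.590 to 0.890), and Cmpk2 at 7.02 and 8.55 FPKM, a ratio of 0.821 (0.708 to 0.953).

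The interferon-induced ADP-ribosyltransferases of the PARP family and DTX3L, the ubiquitin ligase that pairs with PARP9, all lay within 1.5-fold, with a median difference of -0.23. Parp9 stood at 19.5 FPKM in the KO-labelled library and 24.1 FPKM in the WT library, while Dtx3l was higher in the KO-labelled library, at 21.5 and 18.3 FPKM with a ratio of 1.17 (1.09 to 1.26). The genes of this pair are neighbours on chromosome 16 together with Parp14, which stood at 11.99 and 15.04 FPKM. The differences of the 3 neighbours spanned from -0.30 to 0.22. Parp12, at 4.97 FPKM in the KO-labelled library and 5.65 FPKM in the WT library, had an interval that held 1 (0.880, 0.737 to 1.05), and its difference of -0.16 became 0.00 with equal sums.

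The IFITM proteins sit in membranes and keep viruses from fusing with them, and they gave the highest levels of the 40 genes. Ifitm2 was listed at 572 FPKM in the KO-labelled library and 809 FPKM in the WT library, a ratio of 0.707 (0.682 to 0.733). Ifitm3, which acts in endosomes, stood at 389 and 571 FPKM, a ratio of 0.681 (0.652 to 0.710). Ifitm1 was the 1 member of the family past 1.5-fold, at 214 FPKM in the KO-labelled library and 339.6 FPKM in the WT library, a ratio of 0.629 (0.595 to 0.665). The 3 neighbours on chromosome 7 thus lay between -0.67 and -0.50, the narrowest span of the neighbouring groups with 3 members. Their transcripts are short, at 646 to 702 bases, and the median of the family was -0.55 as measured and -0.25 when centred on length. Of the Ifitm2 words of 50 bases, 48.5% occur in other genes as well, 36.1% in Gm45717. Among the relatives outside the 40 genes, Ifitm6 was at least 1.5-fold higher in the KO-labelled library, at 52.7 and 25.1 FPKM.

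Schlafen proteins and SAMD9L act on translation and tRNA and restrain growth. Slfn2, which keeps mouse T cells quiescent, had the most positive difference of the 40 genes, 0.42, at 25.0 FPKM in the KO-labelled library and 18.4 FPKM in the WT library with a ratio of 1.36 (1.20 to 1.54). With equal sums its difference was 0.60, past the 1.5-fold limit. Its neighbour on chromosome 11, Slfn5, stood at 6.11 and 8.26 FPKM, and Samd9l, a gene whose variants in humans disturb blood formation, at 13.8 and 18.3 FPKM, both with a difference of -0.38. Outside the 40 genes, Slfn4 was at least 1.5-fold higher in the KO-labelled library, at 13.1 and 5.0 FPKM with a ratio of 2.62 (2.29 to 3.01), while Slfn8 stood at 14.6 and 19.75 FPKM. Over all 20 measured close copies and family relatives of the 40 genes, the median difference was -0.21, with 1, Oas1g, past the 1.5-fold limit downwards and 2, Slfn4 and Ifitm6, upwards.

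The other 8 effectors were all lower in the KO-labelled library, with a median difference of -0.61 and 5 of them past the 1.5-fold limit. Xaf1, which encodes a partner of the apoptosis inhibitor XIAP, had the most negative difference of the 40 genes, -1.30, at 5.28 FPKM in the KO-labelled library and 14.5 FPKM in the WT library with a ratio of 0.365 (0.308 to 0.430). Rtp4, a chaperone of receptor transport that also restrains viral replication and interferon signalling, was listed at 14.02 and 34.2 FPKM, a ratio of 0.411 (0.359 to 0.469). Ifi44, which restrains virus growth and interferon responses, stood at 3.35 and 8.37 FPKM, a ratio of 0.4 (0.326 to 0.487). These 3 were each at least 2-fold lower. Bst2, which encodes tetherin, a membrane protein that holds budding virus on the cell, stood at 39.97 FPKM in the KO-labelled library and 60.5 FPKM in the WT library, a ratio of 0.661 (0.588 to 0.742). Its difference of -0.59 became -0.30 when centred on transcript length and -0.40 with equal sums, both within 1.5-fold. Lgals3bp, a secreted glycoprotein that binds galectins, stood at 81.4 and 126.5 FPKM, a ratio of 0.644 (0.612 to 0.677). Within 1.5-fold were Ifi35, a partner of NMI, at 18.7 and 25.2 FPKM, and Trim30a, a mouse regulator of NF-kB signalling, at 18.4 and 21.9 FPKM. The nuclear body gene Sp100 was also within 1.5-fold, at 88.3 FPKM in the KO-labelled library and 104 FPKM in the WT library.

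**Figure D3:**
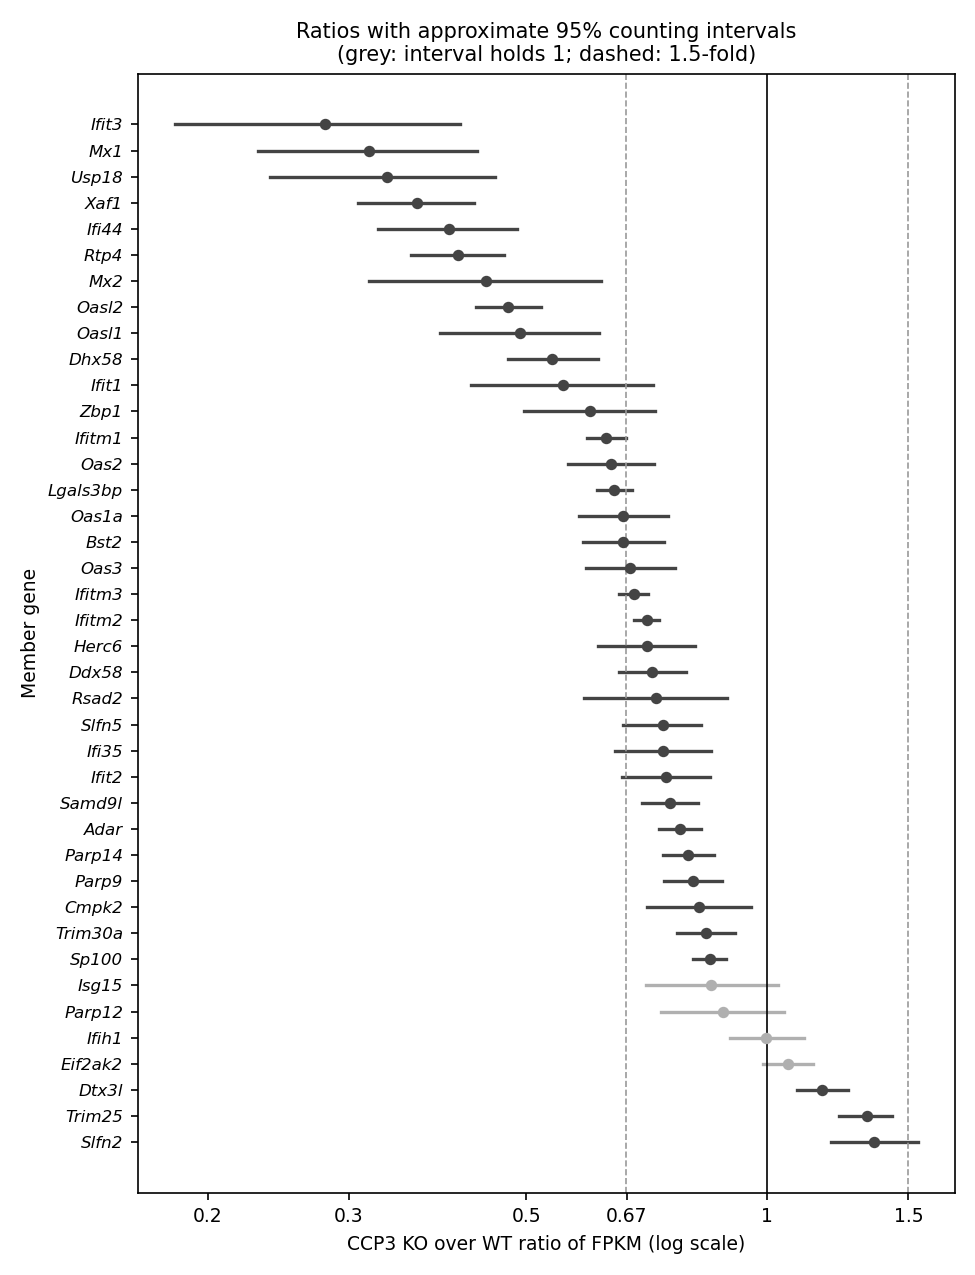
Ratio of FPKM, CCP3 KO over WT, for each of the 40 genes on a log axis, with approximate 95% counting intervals as bars, the solid line at 1, the dashed lines at 1.5-fold on the ratio scale, and grey for the 4 genes whose interval holds 1. Intervals lie wholly below 1 for 33 genes, from Ifit3 at 0.280, and wholly above 1 for Dtx3l, Trim25 and Slfn2.

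Differences went with transcript length in these libraries, for the 40 genes (Spearman's rho 0.44 across genes) and for all genes (0.43), which share the 2 libraries. Of the 12 genes under 2000 bases, 6 were at least 1.5-fold lower and the median was -0.58, while over all genes of that length the median was -0.18 and 13.5% were lower. Among the 17 genes of 2000 to 4000 bases, the median was -0.63 and 10 were at least 1.5-fold lower, against 0.02 and 3.21% over all genes. None of the 11 genes over 4000 bases was at least 1.5-fold lower, and their median of -0.35 stands beside 0.20 and 1.13% over all genes. Centred on the 200 genes nearest in length, the median of the 40 genes was -0.51, and 15 passed the 1.5-fold limit downwards, against 4.44% of all genes under the same centring. Zbp1, Ifitm1 and Bst2 were no longer past the limit on that scale, while Oas3 and Ddx58 were. By level, 9 of the 17 genes with a mean under 10 FPKM were lower and their median was -0.59, against 7.75% and 0.01 over all genes of that level. Of the 17 genes of 10 to 30 FPKM, 4 were lower and the median was -0.35, against 3.92% and 0.03, and of the 6 genes above 30 FPKM, 3 were lower and the median was -0.57, against 6.02% and -0.03.

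**Figure D4:**
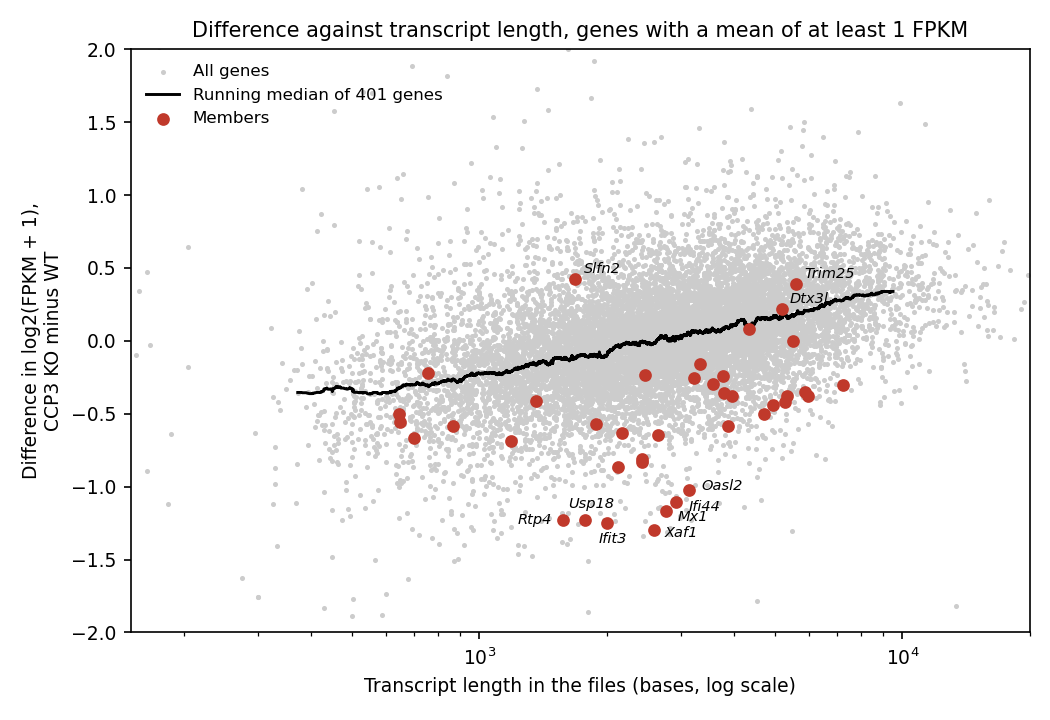
Difference in log2(FPKM + 1), CCP3 KO minus WT, against transcript length in bases on a log axis, for the 40 genes (red) and all genes at a mean of 1 FPKM or more (grey, with a running median in black). The running median climbs with length, and most red points lie below it at every length, with Slfn2 and Trim25 among those above.

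The scale of the libraries moved the count of lower genes. FPKM values summed to 506124 in the KO-labelled library and 577420 in the WT library, and with equal sums the all-gene median was 0.18, and 3.32% of all genes were lower and 12.3% higher by 1.5-fold. On that scale 10 of the 40 genes were at least 1.5-fold lower and 1, Slfn2, higher, and their median was -0.29. Ifit1, Oas2, Zbp1, Ifitm1, Bst2 and Lgals3bp were the genes no longer past the limit. Across the scalings, pseudocounts, filters and centrings tried, 6 genes were at least 1.5-fold lower in every setting that kept them, namely Dhx58, Ifi44, Oasl2, Rtp4, Usp18 and Xaf1.

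The genes of the pathway that leads to these targets were less one-sided, though that difference has no test. Over ligands, receptors, kinases, STATs, IRF factors, adaptors and negative regulators, 40 of 64 genes had a mean of at least 1 FPKM, and 20 of them were below 0 and 20 above 0, with a median of -0.03, 4 genes at least 1.5-fold lower and 0 higher. Of the 21 ligand genes, 3 were listed, all below 1 FPKM in both libraries: Ifng at 0.18 FPKM in the KO-labelled library and 0.39 FPKM in the WT library, Ifnz at 0.18 and 0.61 FPKM, and Ifnk at 0.25 and 0.08 FPKM. Among the 12 measured receptors, kinases and STATs the median was -0.05, and the DNA-binding subunit gene Irf9 was the 1 at least 1.5-fold lower, at 29.8 FPKM in the KO-labelled library and 45.7 FPKM in the WT library. Its partner gene Stat2 stood at 13 and 16.3 FPKM, the receptor subunit gene Il10rb at 31.5 and 39.0 FPKM, and Ifngr1, which encodes a receptor of interferon gamma, was higher, at 99.7 and 76.4 FPKM. The 8 IRF genes had a median of -0.32, with Irf7, the factor that amplifies type I interferon production, the 1 past 1.5-fold, at 8.55 and 26.2 FPKM with a ratio of 0.326 (0.280 to 0.381). Irf1, Irf2 and Irf3 were alike in their difference, between -0.36 and -0.35, and Irf2, a repressor of interferon targets, stood at 51.0 and 65.8 FPKM.

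The 10 measured sensor adaptors and kinases had a median of 0.04, and the endosomal RNA sensor gene Tlr7 was the 1 at least 1.5-fold lower, at 2.30 FPKM in the KO-labelled library and 4.66 FPKM in the WT library. The adaptor gene Traf3 was higher, at 8.36 and 5.74 FPKM, as was Myd88 at 31.7 and 25.0 FPKM, while Sting1, the adaptor of DNA sensing, was lower, at 41.6 and 55.9 FPKM, all 3 within 1.5-fold. The 10 negative regulators had a median of 0.09, with the exonuclease gene Trex1 the 1 at least 1.5-fold lower, at 11.8 and 19.0 FPKM, and Socs3, a feedback inhibitor of cytokine receptors, at 29.1 and 21.6 FPKM. Among 42 listed interferon-stimulated genes outside the 40, the median was -0.41, and 17 were at least 1.5-fold lower and 0 higher. The class I light chain gene B2m was listed at 1421 FPKM in the KO-labelled library and 3244 FPKM in the WT library, the GTPase gene Iigp1 at 4.87 and 12.5 FPKM, Ifi27l2a at 6.87 and 17.5 FPKM, and Phf11b at 4.95 and 11.7 FPKM.

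**Figure D5:**
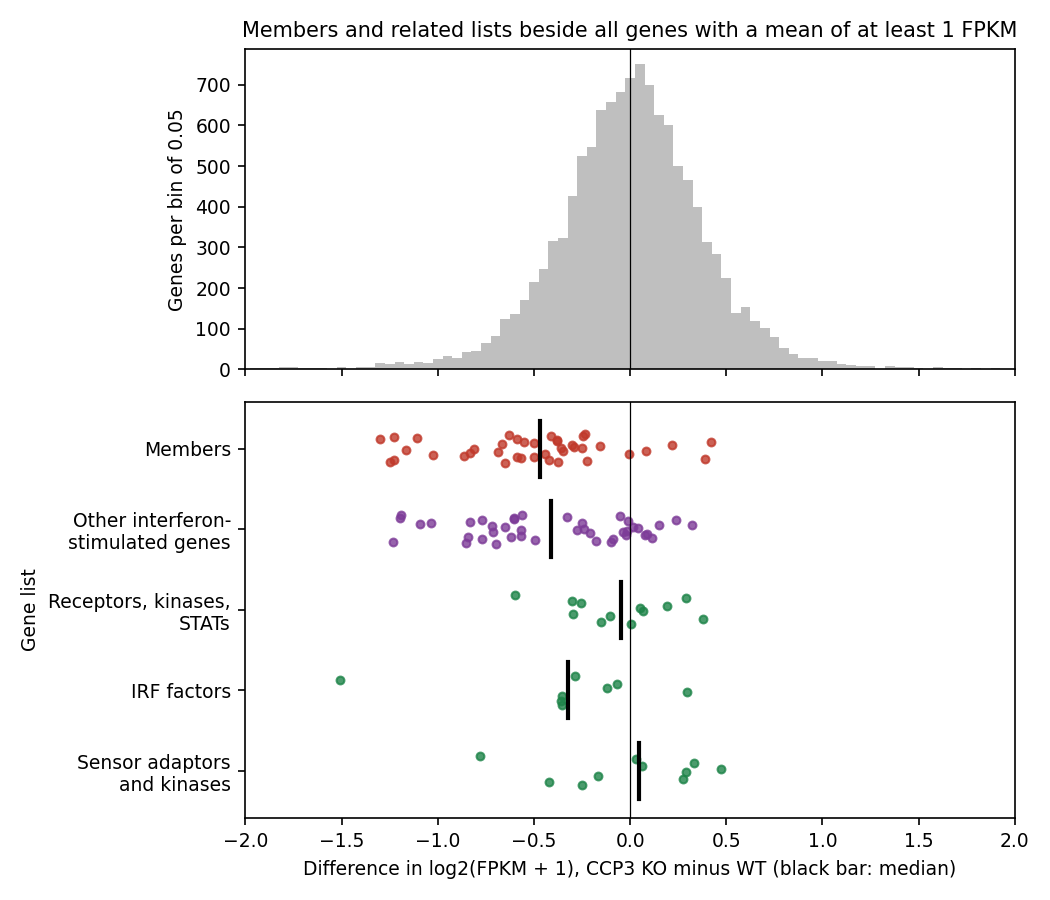
Difference in log2(FPKM + 1), CCP3 KO minus WT, as a histogram over all genes at a mean of 1 FPKM or more (top, bins of 0.05) and as points for the 40 genes and 4 related lists (bottom, black bars at the medians). The medians are -0.47 for the 40 genes and -0.41 for other interferon-stimulated genes, against -0.05 for receptors, kinases and STATs, -0.32 for IRF factors and 0.04 for sensor adaptors and kinases.

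Markers of other cells differed between the libraries beside these genes, and their part in the values was not tested. Of 10 measured markers of plasmacytoid dendritic cells, the main makers of type I interferon, 7 lay at least 1.5-fold lower and 0 higher, and the list had a summed level of 71.3 FPKM in the KO-labelled library and 107 FPKM in the WT library over the 12 genes of the list. Siglech, a defining marker of those cells, was listed at 2.79 and 6.37 FPKM. Tcf4 of the same list was higher in the KO-labelled library, at 18.9 and 14.1 FPKM with a ratio of 1.34 (1.26 to 1.44). Runx2 was close to equal, at 14.8 and 14.7 FPKM, so the list did not fall as a whole. Irf7, at 8.55 and 26.2 FPKM and so a large part of the gap between the sums, Tlr7 and Tlr9 stand in that list as well as in the pathway. The B cell list had 9 of 11 genes at least 1.5-fold lower, with sums of 70.7 and 154 FPKM, and the conventional dendritic cell list 5 of 8 measured genes, with sums of 226 and 415 FPKM over 11 genes. The lower genes of the latter list were Itgax, Flt3, H2-Aa, H2-Ab1 and Cd74, and Flt3 also counts in the progenitor list below. Xcr1, at 1.19 and 1.12 FPKM, and Clec9a, at 1.21 and 0.86 FPKM, were not lower in the KO-labelled library. Most of the 15 neutrophil markers differed in the other direction, with 13 above 0 and 2 below 0. Of them, 0 lay at least 1.5-fold lower and 9 at least 1.5-fold higher, with sums of 12108 FPKM in the KO-labelled library and 8687 FPKM in the WT library. Camp was lower in the KO-labelled library, at 152 and 207 FPKM, and Ngp was close to equal, at 565 and 581 FPKM. The 7 markers of multipotent and lymphoid progenitors had 3 at least 1.5-fold lower and 0 higher, and sums of 810 and 1244 FPKM, while among 14 stem cell genes 3 lay at least 1.5-fold lower and 1 higher, with sums of 206 and 278 FPKM. Of 9 erythroid genes, 5 lay at least 1.5-fold lower and 1 higher, with sums of 478 and 1507 FPKM, and of 10 monocyte genes 0 lay lower and 4 higher, with sums of 596 and 538 FPKM. None of the plasmacytoid dendritic cell, B cell or conventional dendritic cell markers was at 0 in either library.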

How the data were processed

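RNA from 1 CCP3 KO and 1 WT library of sorted cells was sequenced on a BGISEQ-500. The deposited FPKM values, 1 per gene with a transcript length, were made by the authors, per the file headers. Per the submitters' processing notes, the tools were HISAT, HISAT2 and RSEM on build mm9. No version of them is given in the sources used here. Symbols and neighbours came from RefSeq annotation of GRCm38.p6, in which 17169 of 17216 identifiers had a symbol, and promoter letters from a RefSeq promoter table of that build. Transcript words came from GENCODE mouse transcripts. Because the builds differ, no gene coordinates are given, and promoter windows are those of the table. Of the 36 promoter entries of the 40 genes, 34 held the start of a GENCODE transcript as listed and 0 held it reversed.

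Genes not listed for a library counted as 0 there. Reads per gene were estimated from low FPKM values of short genes, in which FPKM times length less 41 bases (KO-labelled library) and 37 bases (WT library) falls on multiples of 69.7 and 65.3. Within 0.15 of a whole read lay 85.1% of 141 values in the KO-labelled library and 84.6% of 136 values in the WT library. Exact conditional 95% intervals of the ratio were computed from these estimates. The depth estimate and the intervals were checked on simulated data of whole reads, drawn under the same model that they assume. That check cannot show how well the intervals hold for the deposited values. The FPKM values are not counts, so no count model was used, and with 1 library per genotype no test was run.

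The 40 genes, the other gene lists and the rules were chosen with earlier results of these data known. Named were all 40 genes, all measured genes of lists of 5 or fewer, and otherwise up to 4 genes of a list, by absolute difference, that averaged 5 FPKM or more. Some genes that this rule names are not reported here. Tlr7, Tlr9, Siglech, Oas1g, the other named cell type markers and the 5 short promoter windows were picked with their values in view. The alternatives tried were other pseudocounts, filters and scalings, centring on length and level, the counting interval, close copies and the form of the response element. The work was done in Python 3.11.15 with scipy 1.17.1, numpy 2.4.6 and pandas 2.3.3, and figures were drawn with matplotlib 3.10.9.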

Additional observations from a re-analysis of the deposited data

How the results depend on the processing

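No paired analysis was possible because each genotype has 1 library. The 16 genes at least 1.5-fold lower became 8 when the pseudocount was 5, where the share over all genes was 2.69%, and 10 when both libraries had equal sums, where that share was 3.32%, 1 gene was at least 1.5-fold higher and the median difference was -0.29, beside 0.18 over all genes. The construction of these scales lowers the first count, since a larger pseudocount shrinks the differences of low genes and equal sums raise every KO value. With a filter at a mean of 5 FPKM, which kept 34 of the 40 genes, the count was 11. Under the other alternatives it was between 15 and 17 of the 40 genes. Dropping the filter on low values could not change it, since all 40 genes averaged 1 FPKM or more. In all of these 0 genes were higher, and the share over all genes, where computed, was between 4.44% and 8.39%. The median lay between -0.51 and -0.42 (-0.34 with a pseudocount of 5). Of the 31 genes with a promoter entry, 22.6% held the longer form of the element, against 45.2% for the element itself, beside 0.303% and 3.99% of all genes in the promoter table. Over the 9 scalings, pseudocounts, filters and centrings, 33 genes were below 0 and 3 above 0 in every setting that kept them, while Parp12, Isg15, Ifih1 and Eif2ak2 lay on both sides. Genes with few estimated reads, such as Ifit3, Mx1, Mx2 and Usp18, have the widest intervals.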
